A study of Homo sapiens with 4 samples.

Results

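The proteasome genes of HCT116 cells, a line established from a human colon carcinoma, were followed after knockdown of RBM25. They were taken as the protein-coding rows whose gene name begins with PSMA, PSMB, PSMC or PSMD and a number. This name pattern found 40 of the 58735 rows of the count tables. PSMC3IP, named for binding the ATPase PSMC3, is a recombination factor and no proteasome subunit, so 39 genes are described here. They are 8 alpha subunits of the 20S core, 7 constitutive beta subunits, 4 immunoproteasome or thymus beta subunits, 6 ATPases and 14 non-ATPase genes.

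Total RNA was sequenced from cells carrying a control shRNA (control_sh) and from cells carrying an shRNA against RBM25 (RBM25_sh), with 2 libraries per group. RBM25 is an RNA-binding protein that acts in splice site choice. How the shRNA was delivered, the time after it and whether clones or pools were used are not stated in the labels. Nothing says that replicates are separate cultures, so p-values reflect only the spread of these libraries, which may be technical.

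The proteasome degrades proteins that carry ubiquitin chains. Its barrel, the 20S core, has outer rings of alpha subunits and inner rings of beta subunits, and PSMB5, PSMB6 and PSMB7 hold the active sites. The 19S cap has a ring of ATPases that unfold substrates, and non-ATPase subunits that bind ubiquitin, remove it and hold the cap together. The transcription factor NFE2L1, also called NRF1, raises the genes of both parts when proteasome activity falls. Interferon signalling raises PSMB8, PSMB9 and PSMB10, which replace PSMB5, PSMB6 and PSMB7 in the immunoproteasome.

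Library totals ranged from 15528274 to 16982663 counts. RBM25 stood at 155.3 and 114.9 CPM with control_sh and at 44.0 and 35.7 CPM with RBM25_sh, so the targeted transcript was 3.39-fold lower (edgeR adjusted p = 0.0195). Without RBM25_sh replicate 1 this edgeR adjusted p was 0.0797, and without RBM25_sh replicate 2 it was 0.152. CPM here are counts relative to the TMM-scaled library size, and differences are log2 fold changes of RBM25_sh against control_sh ± SE. A gene was called at an edgeR adjusted p of at most 0.05, adjusted over 16091 tested genes. Epithelial markers were present, with EPCAM between 246 and 287 CPM and KRT8 between 1622 and 3153 CPM, while the intestinal markers CDH17 and VIL1 stayed under 1 CPM. KRT8 was called higher after the correction for GC content described below (0.74 ± 0.18, edgeR adjusted p = 0.0151), and its part in the results was not tested. Of 10 markers of leukocytes, fibroblasts and endothelium, 2 had enough counts to be tested, VWF and COL1A1, and neither was called. CD3E and CDH5 were at 0 in every library. The summed level of the 10 was 41.0 and 63.8 CPM with control_sh and 38.7 and 49.6 CPM with RBM25_sh, nearly all of it COL1A1.

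Of the 39 proteasome genes, 36 had enough counts to be tested. The testis alpha subunit gene PSMA8 and the thymus beta subunit gene PSMB11 had 0 counts in every library, which allows up to 0.167 to 0.201 CPM (3 counts, counting error only). PSMB8 had 7 and 7 counts with control_sh and 5 and 1 with RBM25_sh. In the plot of levels, 31 of the 39 genes lie above 20 CPM in every library. Levels between genes were compared per kilobase of the listed gene length, which is the union of all annotated exons. On that scale the highest mean with control_sh was that of PSMA7, an alpha subunit gene, at 107 CPM per kilobase. The beta subunit gene PSMB3 followed at 99.3 and PSMB4 at 74.8 CPM per kilobase. In the RBM25_sh libraries PSMB3 (120 CPM per kilobase) and PSMA7 (113 CPM per kilobase) were again the highest, in the other order. The PSMA7 libraries spanned 84.5 to 130 CPM per kilobase and the PSMB3 libraries 88.9 to 129 CPM per kilobase, so these neighbours did not differ beyond their spread. Among the non-ATPase genes PSMD2, a scaffold of the cap, was highest at 72.7 CPM per kilobase with control_sh, and PSMC3 was the highest ATPase at 45.8. These ranks depend on the length used. Per kilobase of the principal transcript, control_sh means were 188 for PSMA7, 171 for PSMB1, 167 for PSMB4 and 151 for PSMB3. With RBM25_sh they were 198, 191, 219 and 183, in the same order of genes. The highest ATPase with control_sh was then PSMC5 at 72.8, with PSMC3 at 65.9.

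Among the alpha subunits other than PSMA8, the lowest levels were those of PSMA2 and PSMA6, whose exons are shared with another annotated gene. PSMA6, an essential alpha subunit gene, had 52 to 74 counts per library, or 0.523 CPM per kilobase with control_sh. PSMA2, which is essential too, had 36 to 114 counts per library and 0.455 CPM per kilobase with control_sh. In GENCODE, 81.0% of the principal PSMA6 transcript and 52.5% of the principal PSMA2 transcript lie in exons of another protein-coding gene on the same strand. For PSMA1 this share is 53.2%, for PSMB10 45.3% and for PSMD9 43.8%. How such reads were counted is not given in the sources used here, so the levels of these 5 genes are uncertain, and the part of the sharing in their low counts was not tested. PSMC1 shares 82.1% of its principal transcript with NRDE2 on the opposite strand, PSMD7 shares 50.4% and PSMC5 27.2% with opposite-strand genes, and the strand setting of the counting is not known.

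**Figure D1:**
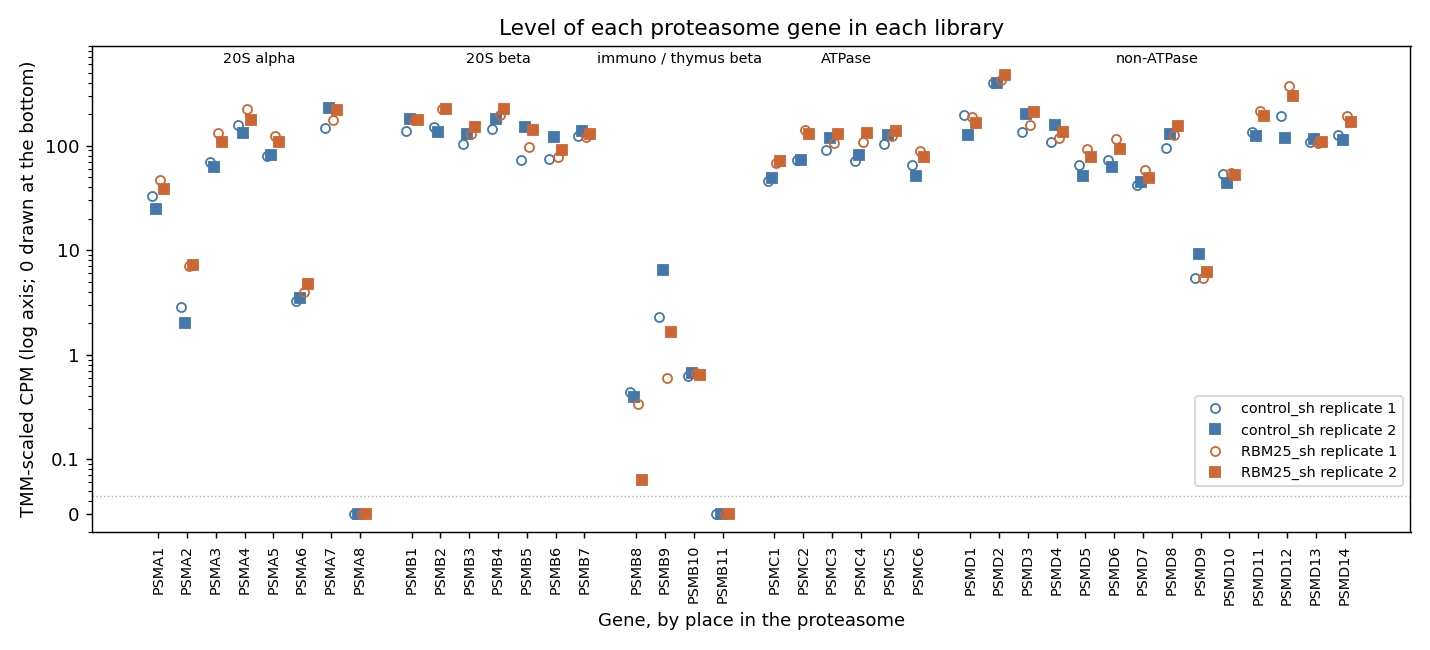
TMM-scaled CPM on a log axis for the 39 proteasome genes, with 1 point per library and zeros drawn at the bottom; open points are replicate 1 and filled points replicate 2 of control_sh (blue) and RBM25_sh (orange). PSMA8 and PSMB11 are at 0 in all 4 libraries, PSMA2, PSMA6, PSMD9 and the immunoproteasome genes lie under 10 CPM, and the other 31 genes lie above 20 CPM.

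Most proteasome genes had somewhat higher values with RBM25_sh, and whether any passed the threshold depended on the fit. With the filter on low counts and group as the only term, edgeR called 0 of the 36 tested genes, where it called 3.05% of all tested genes. At an unadjusted edgeR p of at most 0.05, 8 were higher and 1 was lower, against 7.92% higher and 13.5% lower of all genes. The DESeq2 Wald test called 4 higher and none lower, PSMA2, PSMA3, PSMC2 and PSMD12, against 2.40% of all genes called higher by it and 4.34% lower. Without the filter edgeR called PSMA2 and PSMD12 higher, against 1.42% of all genes called higher, and PSMB9 lower, against 3.23% called lower. Leaving out 1 library at a time gave log2 fold changes of 1.33 to 1.83 for PSMA2 and 0.80 to 1.49 for PSMD12. For PSMB9 it gave −2.83 to −0.999. With all 4 libraries the log2 fold change was above 0 in 30 of 36 genes, where it was in 47.5% of all tested genes. Its median was 0.32 against −0.04 over all genes. When libraries were scaled by totals alone, 26 of the 36 were above 0, where the median over all genes was −0.15. Without control_sh replicate 1, 24 of the 36 were above 0, and without control_sh replicate 2, 33 were. In 20 of the 36 both RBM25_sh libraries exceeded both control libraries, which held for 23.9% of all genes, and in 1, PSMB9, both were below, which held for 27.9% of all genes.

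Summed over the 39 genes, the control libraries had 3491 and 3771 CPM and the RBM25_sh libraries 4612 and 4664 CPM. As a share of all raw counts the 39 genes took 0.355% and 0.398% with control_sh and 0.443% and 0.448% with RBM25_sh. The groups did not overlap on either scale. In bulk RNA a changed level per cell and a changed share of cells with the transcript cannot be told apart.

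GC content moved with these values. Across the 36 genes the log2 fold change had a Spearman correlation of −0.58 with the GC content of the longest transcript, where AT-rich genes were the higher ones. Within the control group, the log2 difference of replicate 2 from replicate 1 had a correlation of 0.64 with GC content, and within the RBM25_sh group of 0.68. The genes share the 4 libraries, so these correlations are descriptions only. A second fit therefore removed each library's smooth trend on GC content. After it 12 of the 36 genes were called higher and 1 lower, where 28.3% of all tested genes were called, 12.8% higher and 15.5% lower. The members' median was then 0.28, against −0.03 over all genes, and 30 of 36 were still above 0, as were 48.2% of all genes. The correlation with GC content was then −0.19. Calls after this correction are named as such below, since the edgeR fit with group alone made none of them; PSMA2, PSMD12 and PSMB9 were also called without the filter on low counts.

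**Figure D2:**
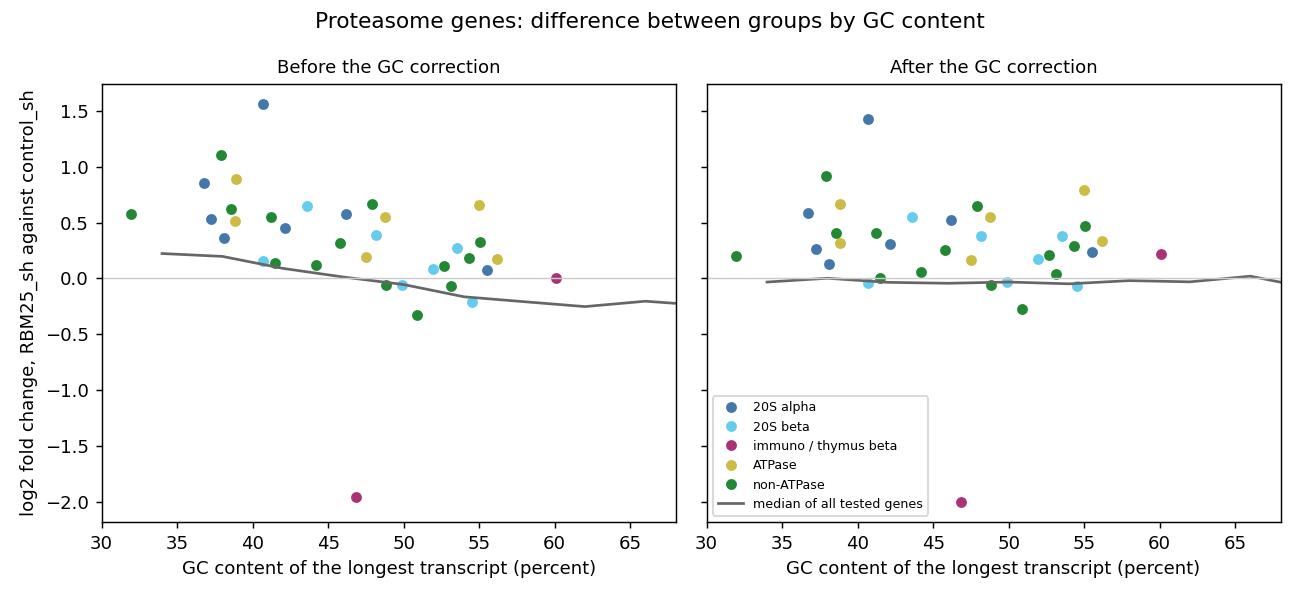
Log2 fold change of RBM25_sh against control_sh (y) by GC content of the longest transcript in percent (x) for the 36 tested proteasome genes, coloured by place in the complex, before (left) and after (right) the GC correction; the line is the median of all tested genes in bins of GC content. In each panel 30 of the 36 points lie above 0, and PSMB9 is the lowest.

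The 7 tested alpha subunits of the 20S core had log2 fold changes above 0, except that PSMA7 turned sign when libraries were scaled by totals alone. None of the 7 tested was called by edgeR, and 3 were called higher after the GC correction, where 12.8% of all genes were. Their median log2 fold change was 0.53 before and 0.31 after. Their CPM summed to 495 and 536 with control_sh and to 716 and 661 with RBM25_sh. PSMA3 had 70.0 and 63.2 CPM with control_sh and 133.3 and 107.9 CPM with RBM25_sh. The groups did not overlap, and the difference of 0.86 ± 0.27 had an edgeR adjusted p of 0.118. After the GC correction PSMA3 rose by 0.59 ± 0.17 (edgeR adjusted p = 0.0252).

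PSMA2 had the highest log2 fold change of the 36 genes, on few counts. It stood at 2.85 and 2.01 CPM with control_sh and at 7.10 and 7.26 CPM with RBM25_sh. The groups were well apart, and the log2 fold change of 1.57 ± 0.37 lay just outside the threshold (edgeR adjusted p = 0.0537). It was 1.43 ± 0.29 after the GC correction (edgeR adjusted p = 0.00553). MRPL32, a mitochondrial ribosomal protein gene that starts next to PSMA2 on the opposite strand, had 355 and 401 counts with control_sh and 712 and 692 with RBM25_sh, and 24 exonic bases are shared.

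PSMA1 was called higher after the GC correction only (0.53 ± 0.15, edgeR adjusted p = 0.0285), from 33.0 and 24.8 CPM to 47.3 and 38.7 CPM. PSMA4 and PSMA5 were near it before the correction, at 0.45 ± 0.28 and 0.53 ± 0.27, and were not called by edgeR either way. PSMA6 had 3.29 and 3.51 CPM with control_sh and 4.02 and 4.71 CPM with RBM25_sh. PSMA7, the most abundant of the ring per length, had 147.9 and 227.2 CPM with control_sh and 176.9 and 218.2 CPM with RBM25_sh. Its groups overlapped, and its log2 fold change of 0.07 ± 0.30 turned to −0.04 when libraries were scaled by totals alone.

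Of the 7 constitutive beta subunits, 5 had log2 fold changes above 0 and 2 below. None was called by edgeR and 2 were called higher after the GC correction, where 12.8% of all genes were. Their median was 0.15 before and 0.18 after. Without control_sh replicate 1 the median was −0.02, and without control_sh replicate 2 it was 0.43, where that of the alpha subunits was 0.42. PSMB1 had 138.7 and 179.1 CPM with control_sh and 175.9 and 177.8 CPM with RBM25_sh. Its groups overlapped, and its log2 fold change of 0.15 ± 0.27 turned to −0.044 after the GC correction. PSMB2 had 152.0 and 136.5 CPM with control_sh and 226.1 and 225.6 CPM with RBM25_sh. This was the widest separation of the ring (0.65 ± 0.26, edgeR adjusted p = 0.194, and 0.55 ± 0.15 with an edgeR adjusted p of 0.0193 after the GC correction). PSMB3 was called after the GC correction at 0.38 ± 0.13 (edgeR adjusted p = 0.0471), while PSMB4 was at 0.38 ± 0.17 and was not called.

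The genes of the catalytic subunits, a grouping made after the values were seen, were not called by edgeR before or after the GC correction. Most genes were uncalled too, since 3.05% of all tested genes were called before it and 28.3% after it. PSMB5, with the chymotrypsin-like site, had 73.5 and 149.5 CPM with control_sh and 96.3 and 140.7 CPM with RBM25_sh. PSMB6, with the caspase-like site, had 74.3 and 121.0 CPM and then 77.5 and 90.9 CPM. PSMB7, with the trypsin-like site, had 124.3 and 137.1 CPM and then 121.7 and 128.6 CPM. The groups overlapped in all 3 genes, as they did in 7754 of the 16091 tested genes. The log2 fold changes were 0.09 ± 0.37 for PSMB5, −0.21 ± 0.31 for PSMB6 and −0.06 ± 0.26 for PSMB7. For all 3 genes the replicates of the control group differed by more than the groups did. The sign of PSMB5 turned when libraries were scaled by totals alone (−0.03).

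The immunoproteasome genes had low levels, and PSMB9 was lower with RBM25_sh. PSMB9 had 2.28 and 6.53 CPM with control_sh and 0.603 and 1.66 CPM with RBM25_sh, from 36, 117, 9 and 26 counts. The groups did not overlap, but the control libraries differed from each other more than RBM25_sh replicate 2 did from control_sh replicate 1. The log2 fold change of −1.95 ± 0.63 did not pass (edgeR adjusted p = 0.123). It was −2.004 ± 0.61 after the GC correction, where PSMB9 was called lower (edgeR adjusted p = 0.0339). Single libraries moved it: leaving out control_sh replicate 1 gave −2.51 and leaving out RBM25_sh replicate 2 gave −2.83, and both were called. Without control_sh replicate 2 it was −0.999 and without RBM25_sh replicate 1 −1.41, where it was not.

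PSMB10 had 10, 12, 10 and 10 counts and its level was 0.632 and 0.669 CPM with control_sh against 0.670 and 0.637 CPM with RBM25_sh. The SE of its log2 fold change was 0.64, so a modest difference was not detectable at this depth. The level of PSMB10 is uncertain, since 45.3% of its principal transcript lies in exons of AC040162.1 on the same strand. AC040162.1 had 21 and 30 counts with control_sh and 24 and 20 with RBM25_sh. Each immunoproteasome subunit takes the place of a constitutive one, so their ratio was formed within each library, where library scaling drops out. Per listed length, PSMB9 was 1.45% and 2.54% of PSMB6 with control_sh and 0.367% and 0.859% of PSMB6 with RBM25_sh. PSMB10 was 0.491% and 0.471% of PSMB7 with control_sh and 0.531% and 0.478% with RBM25_sh. PSMB8 was 0.355% and 0.154% of PSMB5 with control_sh and 0.205% and 0.0267% with RBM25_sh, on at most 7 counts. The size of these percentages depends on the length used, while their change between groups does not. The listed length of PSMB9 is 3072 bases, against 782 for its principal transcript. Per kilobase of the principal transcript, control_sh means were 5.63 CPM for PSMB9 and 115 for PSMB6. They were 0.534 for PSMB10 and 133 for PSMB7, and 0.371 for PSMB8 and 86.1 for PSMB5. The PSMB9 ratio did not overlap between the groups and the other ratios did. The ratios are given as values with no test, and with 2 libraries against 2 an exact permutation test could not go below p = 0.333.

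TAP1, a peptide transporter gene, lies within the annotated span of PSMB9 on the opposite strand, with 0 exonic bases shared. TAP1 was named after its values were seen. It had 44.5 and 60.6 CPM with control_sh and 43.6 and 59.6 CPM with RBM25_sh. Its log2 fold change of −0.03 ± 0.30 was not called and turned sign with DESeq2 size factors (0.02) and after the GC correction (0.15). Whether PSMB9 and TAP1 differ in their response was not tested.

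All 6 ATPase genes had log2 fold changes above 0. None of 6 was called by edgeR and 3 were called higher after the GC correction, where 12.8% of all genes were. Their median was 0.53 before and 0.44 after. The 6 genes summed to 449 and 500 CPM with control_sh and to 638 and 679 CPM with RBM25_sh. PSMC2 had 73.3 and 73.4 CPM with control_sh and 142.5 and 129.0 CPM with RBM25_sh. That is a difference of 0.89 ± 0.26 (edgeR adjusted p = 0.0982). It became 0.66 ± 0.18 after the GC correction (edgeR adjusted p = 0.0215). PSMC4 had 71.4 and 80.8 CPM and then 109.1 and 131.7 CPM. Its GC content is high for the complex, at 55.0%, and the correction raised its difference from 0.66 ± 0.27 to 0.79 ± 0.13 (edgeR adjusted p = 0.00208). PSMC1 was at 0.55 ± 0.26 and was called after the correction (0.55 ± 0.14, edgeR adjusted p = 0.0144), and its transcript overlaps NRDE2 as above. NRDE2 itself had 347 and 401 counts with control_sh and 658 and 645 with RBM25_sh. PSMC6 was at 0.52 ± 0.28, while PSMC3 (0.17 ± 0.28) and PSMC5 (0.19 ± 0.27) had overlapping groups.

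The non-ATPase genes ranged from −0.33 for PSMD9 to 1.10 for PSMD12, with 11 above 0 and 3 below. None of 14 was called by edgeR and 4 were called higher after the GC correction, where 12.8% of all genes were. Their median was 0.25 before and 0.23 after. They are taken below as lid, base and chaperones, a grouping made after the values were seen. PSMD12, a lid subunit gene, had 193.0 and 119.2 CPM with control_sh and 374.4 and 296.7 CPM with RBM25_sh. The groups did not overlap, and the mean went from 156 ± 52.2 to 336 ± 54.9 CPM (SD, n = 2). The log2 fold change was 1.10 ± 0.32 (edgeR adjusted p = 0.0892). With GC corrected it was 0.91 ± 0.14 (edgeR adjusted p = 0.00151). PSMD11, another lid subunit gene, had 135.1 and 123.4 CPM and then 216.8 and 194.1 CPM. It was at 0.67 ± 0.26 before and 0.65 ± 0.13 after the correction (edgeR adjusted p = 0.00565).

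PSMD14, the deubiquitinase of the lid, had 126.2 and 114.5 CPM with control_sh and 191.8 and 167.1 CPM with RBM25_sh. It has the lowest GC content of the complex, 32.0%, and its difference went from 0.58 ± 0.27 to 0.20 ± 0.20 with the correction, where it was not called. PSMD6 was at 0.62 ± 0.28 before and 0.40 ± 0.14 after, short of the threshold (edgeR adjusted p = 0.0589). PSMD8 went the other way, from 0.32 ± 0.29 with overlapping groups to a call at 0.47 ± 0.13 (edgeR adjusted p = 0.0237). PSMD3, PSMD7 and PSMD13, also lid genes, were not called, at 0.11 ± 0.31, 0.32 ± 0.27 and −0.06 ± 0.26. SIRT3, on the opposite strand, shares 316 exonic bases with PSMD13. It had 287 and 524 counts with control_sh and 135 and 136 with RBM25_sh. PSMD3 turned to −0.00057 when libraries were scaled by totals alone.

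In the base, PSMD2 had 396.5 and 396.2 CPM with control_sh and 423.3 and 474.7 CPM with RBM25_sh, a difference of 0.18 ± 0.26. PSMD1, a scaffold gene like PSMD2 (0.12 ± 0.30), and the ubiquitin receptor gene PSMD4 (−0.07 ± 0.29) had overlapping groups. PSMD5, PSMD9 and PSMD10 encode chaperones that help the ATPase ring assemble and leave the finished particle. PSMD5 was called higher after the GC correction (0.41 ± 0.13, edgeR adjusted p = 0.0368), from 65.6 and 51.5 CPM to 93.4 and 78.2 CPM. PSMD9 had 5.38 and 9.26 CPM with control_sh and 5.43 and 6.24 CPM with RBM25_sh, and PSMD10 stayed between 44.0 and 55.0 CPM in all 4.

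**Figure D3:**
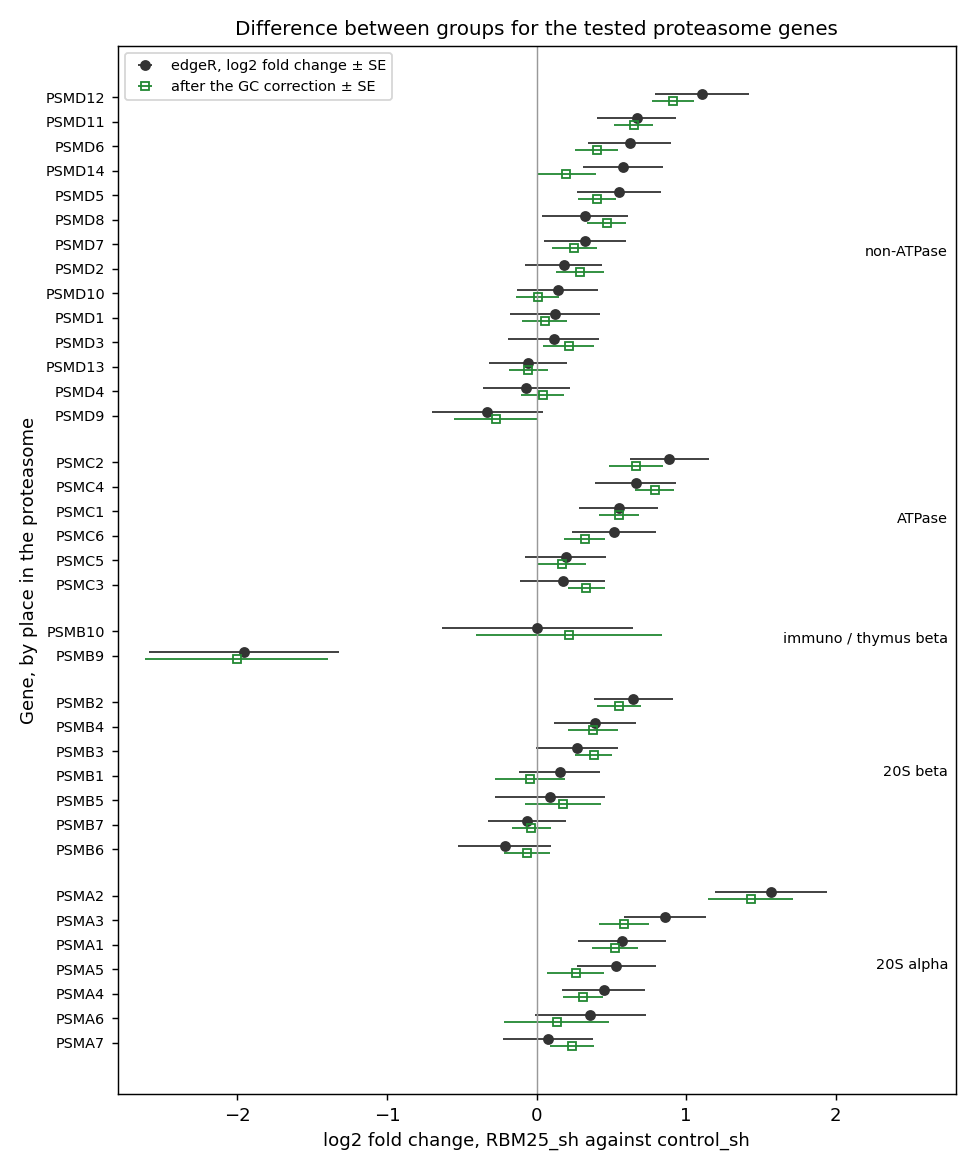
Log2 fold change of RBM25_sh against control_sh ± SE (x) for the 36 tested proteasome genes (y), grouped by place in the complex, from the edgeR fit (black circles) and after the GC correction (green squares). PSMA2 and PSMD12 are the highest in both fits, PSMC2 comes next before the correction and PSMC4 after it, PSMB9 is the lowest in both, and the SE is smaller after the correction for most genes.

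The upstream sequence of PSMD12 is shown because this gene had the largest difference among the abundant subunits and its promoter holds a match to the element bound by NFE2L1. Shown are 200 of the 250 bases before the RefSeq start on GRCh38.p14, those farthest from it (chr17:67366628-67366827, minus strand), read 5′ to 3′, with the match to TGACNNNGC in capitals. The other 3 sequences are 29-base windows around such a match in PSMB3 (chr17:38752627-38752655, plus strand), PSMD5 (chr9:120843038-120843066, minus strand) and PSMB9 (chr6:32854034-32854062, minus strand). They are read on the strand of the match, which is the strand of the gene for PSMB3 and PSMD5 and the opposite one for PSMB9. By its listed position TAP1 starts at chr6:32853978 on the minus strand, so the PSMB9 match lies upstream of TAP1 too.
PSMD12: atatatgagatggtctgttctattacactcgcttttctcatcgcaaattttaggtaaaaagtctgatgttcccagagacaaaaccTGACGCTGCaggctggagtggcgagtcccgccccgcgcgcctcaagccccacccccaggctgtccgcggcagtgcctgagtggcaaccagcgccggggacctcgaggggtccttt
PSMB3: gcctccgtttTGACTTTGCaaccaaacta
PSMD5: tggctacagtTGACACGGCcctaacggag
PSMB9: ccgagacaagTGACGAGGCagccccgccc

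Promoter windows were found for 34 of the 39 genes, 41 windows in all since some genes have several starts, and the 250 bases before each start were searched on both strands. TGACNNNGC was in 8 of the 41 windows (19.5%) and in 10.9% of 35116 windows of all genes. The 8 genes were PSMA4, PSMB3, PSMB9, PSMC5, PSMD3, PSMD5, PSMD9 and PSMD12. Of these, PSMB3, PSMD5 and PSMD12 were called higher and PSMB9 lower after the GC correction, while PSMA4, PSMC5, PSMD3 and PSMD9 were not called. After that correction 12.8% of all tested genes were called higher and 15.5% lower, and 12 of the 36 tested proteasome genes were called higher. The sequences printed above are those of the called genes only, and whether the motif goes with the calls was not tested. CCAAT, the core of the element of NF-Y, was in 17 of the 41 windows (41.5%) and in 32.0% of all windows. GAANNTTC, a heat shock element core, was in 0 of the 41 and in 5.78% of all windows. The core of the interferon-stimulated response element was in 3 of the 41, those of PSMA4, PSMB4 and PSMB10, and in 3.02% of all windows. Overlap between the motifs was allowed. A match describes letters and does not show a bound site.

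Around the complex, the genes of 4 pathway lists were read from the same fits. The lists below were chosen with earlier results of these data known. Of 64 tested genes in 4 lists, edgeR called 1, HLA-B, which was lower. After the GC correction 4 were called higher and 15 lower, where 12.8% of all genes were called higher and 15.5% lower. Of 14 regulators of proteasome transcription and their partners none was called by edgeR, and after the GC correction 2 were called higher, VCP and KEAP1, and 5 lower. NFE2L1 had 346.5 and 499.7 CPM with control_sh and 209.9 and 252.9 CPM with RBM25_sh. The groups did not overlap. Its log2 fold change was −0.87 ± 0.29 (edgeR adjusted p = 0.132), and it fell by 0.72 with GC corrected (SE 0.15, edgeR adjusted p = 0.00690).

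DDI2, the protease that cuts NFE2L1 into its active form, had 76.1 and 55.6 CPM with control_sh and 46.9 and 42.5 CPM with RBM25_sh. It was at −0.56 ± 0.29 before and −0.66 ± 0.13 after the correction (edgeR adjusted p = 0.00592). The small MAF genes encode the partners with which NFE2L1 binds DNA. MAFF was at −1.10 ± 0.36 (edgeR adjusted p = 0.126) and MAFG at −0.61 ± 0.28 (edgeR adjusted p = 0.255). Both were called lower after the correction, at −0.87 ± 0.16 and −0.44 ± 0.13, as was MAFK at −0.74 ± 0.23. MAFK had overlapping groups and was at −0.98 ± 0.48 before the correction (edgeR adjusted p = 0.282). Leaving out control_sh replicate 1 gave −1.49, which was called, and leaving out control_sh replicate 2 gave −0.17. Leaving out RBM25_sh replicate 1 gave −0.50 and leaving out RBM25_sh replicate 2 gave −1.66. NFE2L2, the paralog of NFE2L1 known for the oxidative stress response, was at 0.19 ± 0.29 with overlapping groups. VCP, KEAP1, DDI2, MAFK and NFE2L2 were named after their values were seen.

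Of 20 activators, assembly factors and associated proteins none was called by edgeR, and with GC corrected 2 were higher and 2 lower, 10.0% of them higher where 12.8% of all genes were. UCHL5, a deubiquitinase of the cap, had 57.1 and 40.8 CPM with control_sh and 110.0 and 90.7 CPM with RBM25_sh. It was at 1.04 ± 0.29 (edgeR adjusted p = 0.0873) and after the correction at 0.77 ± 0.14 (edgeR adjusted p = 0.00324). POMP, the chaperone of 20S assembly, had 74.6 and 73.0 CPM and then 143.1 and 121.5 CPM. POMP was at 0.84 ± 0.27 before and 0.51 ± 0.20 after the correction and was not called either way. PSMG4, which helps the alpha ring form, was at −0.93 ± 0.34 before and −0.83 ± 0.24 after it, where it was called lower. USP14, another deubiquitinase of the cap, was called higher after the correction (0.43 ± 0.12), and AKIRIN2, which brings proteasomes into the nucleus, lower (−0.51 ± 0.14), both named after their values were seen. PSME1 and PSME2, the interferon-responsive 11S activator, were at −0.36 ± 0.26 and −0.34 ± 0.29 and were not called by either fit, also named after their values were seen.

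Of 16 genes for ubiquitin, its activating enzymes and shuttle factors none was called by edgeR and none was called higher after the GC correction. UBQLN1, a shuttle factor, was at 0.58 ± 0.28 and the ubiquitin fusion gene RPS27A at 0.39 ± 0.26, neither called. Of 14 genes of antigen processing, 1 was called lower by edgeR and 7 after the GC correction, with none higher, where 2.40% of all genes were called lower before it and 15.5% after it. HLA-B, a class I heavy chain gene with close paralogs, had 123.3 and 142.2 CPM with control_sh and 53.2 and 47.7 CPM with RBM25_sh (−1.40 ± 0.27, edgeR adjusted p = 0.0309). Without RBM25_sh replicate 1 its edgeR adjusted p was 0.251 and without RBM25_sh replicate 2 it was 0.292. TAPBP, which loads peptides on class I molecules, was at −0.93 ± 0.28 and B2M, their light chain, at −0.78 ± 0.27. Both were called lower after the correction, at −0.76 ± 0.13 and −0.96 ± 0.15.

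**Figure D4:**
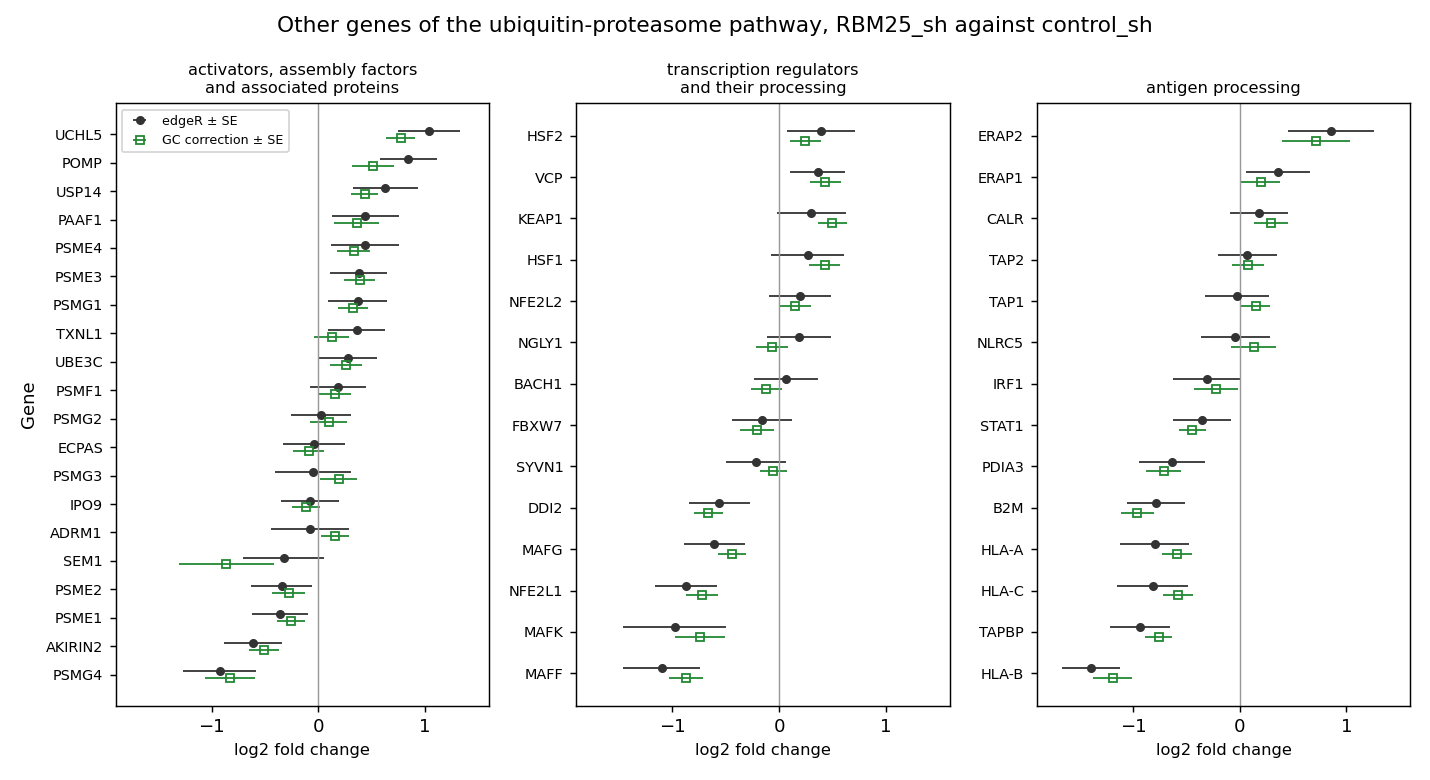
Log2 fold change of RBM25_sh against control_sh ± SE (x) for the tested genes (y) of 3 pathway lists (activators and assembly factors, regulators, antigen processing), from the edgeR fit (black circles) and after the GC correction (green squares). NFE2L1 and the small MAF genes MAFF, MAFG and MAFK lie left of 0, UCHL5 is the highest of the associated proteins, and HLA-B is the lowest of the antigen processing genes.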

How the data were processed

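RNA of 4 libraries was measured, 2 per group, grouped by the treatment label. The authors deposited raw counts per gene and FPKM values for each library. TopHat2 2.0.9, Bowtie2 2.0.6, Cuffdiff 2.1.1 and Cufflinks 2.1.1 are named without roles, per the submitters' processing notes. For the counter, its strand setting and the genome build, nothing is given in the sources used here. All 58735 deposited positions match GENCODE release 29 (GRCh38), and 27 names held as dates were restored from it. The deposited FPKM are the counts divided by the listed length and 1 factor per library.

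Counts were tested with the quasi-likelihood test of edgeR 4.0.16 (R 4.3.3), with filterByExpr, TMM scaling and group as the only term, which leaves 2 residual degrees of freedom. P-values were adjusted by Benjamini-Hochberg over 16091 genes. The SE was taken as the size of the log2 fold change over the root of F. The GC correction removed from each library a smoothing spline of log2 CPM on transcript GC content, with 6 degrees of freedom, as offsets. DESeq2 1.42.0, limma-trend (limma 3.58.1) on log2(FPKM + 1) and log2(FPKM + 0.1), other scalings and filters, a replicate block and leaving out each library were the alternatives. The scripts were tested on simulated data.

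Genes named with values were RBM25, every proteasome gene, cell type markers, and of each pathway list the 3 with the smallest p. MRPL32, NRDE2, SIRT3 and AC040162.1 share exonic bases with a member and were named outside this rule. Not every gene that overlaps a member is given. Other genes are marked. A gene of the ubiquitin list is not reported here. The members and lists were chosen with earlier results of these data known. Promoter sequences come from RefSeq on GRCh38.p14. Replicates differed by more than counting error (chi-square per degree of freedom 62.5 in the control group and 24.6 in the RBM25_sh group), so no libraries were merged.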

Additional observations from a re-analysis of the deposited data

How the results depend on the processing

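With 2 libraries per group, calls depended on the fit more than directions did. Over 56 named genes and 783 alternative values, 642 kept direction and side of the threshold, 105 kept direction and passed it, 4 kept direction and lost their call, and 32 turned sign. RBM25 was not among these 56 genes and is given below. All 4 lost calls were those of HLA-B. The cause of a change was not tested unless stated.

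Of all genes, 105 were called higher and 386 lower. These counts were 439 and 999 with no filter, 386 and 699 with DESeq2, 58 and 157 with limma-trend on FPKM + 1, and 2058 and 2500 after the GC correction, and 196 were lower with limma-trend on FPKM + 0.1. Higher calls were 21.4% of all calls before the GC correction and 45.2% after it. Leaving out 1 library gave 70 to 906 higher and 173 to 1591 lower. Of the proteasome genes, 2 were called higher and 1 lower with no filter, 4 higher with DESeq2, 12 higher and 1 lower after the GC correction, and 0 to 2 higher and 0 to 1 lower without 1 library. Of the pathway genes, 1 was higher and 2 lower with no filter, 2 higher with DESeq2, 4 higher and 15 lower after the GC correction, 0 lower with limma-trend, and 0 to 2 higher and 0 to 8 lower without 1 library.

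Library totals alone moved the median of all genes by −0.11. The alpha median was 0.31 after the GC correction, with or without the block, and 0.42 to 0.66 without 1 library. The constitutive beta median was −0.018 to 0.43 without 1 library. The immunoproteasome median was −1.97 with the stricter filter, which leaves only PSMB9, −0.37 with limma-trend on FPKM + 1, and −1.38 to −0.48 without 1 library. Without 1 library the log2 change of the ratio was −2.44 to −1.22 for PSMB9 to PSMB6, −0.0087 to 0.14 for PSMB10 to PSMB7 and −3.25 to −0.31 for PSMB8 to PSMB5. RBM25 was −1.46 with limma-trend on FPKM + 1 (adjusted p = 0.0572) and −1.96 to −1.53 without 1 library.

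Signs turned with library totals for PSMB5 (−0.032), PSMA7 (−0.041), PSMD3 (−0.00057) and PSMB10 (−0.11). They turned after the GC correction for PSMB1 (−0.044), PSMD4 (0.040, and 0.049 with the block) and TAP1 (0.15, also with the block). TAP1 was 0.017 with DESeq2 size factors and with DESeq2, and 0.0088 and 0.0099 with limma-trend on FPKM + 1 and FPKM + 0.1. Without 1 library the log2 fold change spanned 0 for PSMB1 (−0.018 to 0.35), PSMB5 (−0.33 to 0.69), PSMA7 (−0.20 to 0.42), PSMD3 (−0.14 to 0.43), PSMD9 (−0.67 to 0.12), PSMB7 (−0.13 to 0.0098), PSMB6 (−0.52 to 0.18), PSMD4 (−0.32 to 0.23), PSMC3 (−0.0084 to 0.38), PSMD1 (−0.16 to 0.47), PSMB10 (−0.035 to 0.069), TAP1 (−0.24 to 0.21) and NFE2L2 (−0.063 to 0.51).

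The replicate numbers are shared between the groups, and the labels do not say that a number marks a batch. Same-numbered libraries deviated together, with a correlation of 0.76 over 10380 genes. With the replicate block 2641 of all genes were called higher (16.4%) and 3081 lower (19.1%), 15 of 36 proteasome genes higher (41.7%) and 1 lower, and 7 pathway genes higher and 14 lower. With the block and the GC correction these counts were 2826 and 3272, 14 and 1, and 7 and 16.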

Other observations

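PSMC3IP, which matches the name pattern and is no subunit, had 8.10 and 9.65 CPM with control_sh and 10.5 and 9.37 CPM with RBM25_sh, with overlapping groups. Of 30 annotated pseudogenes of proteasome genes, 12 had any count, 291 counts in all libraries together against 265424 in the 40 genes. PSMC1P1 had the most, with 44 and 45 counts with control_sh and 33 and 59 with RBM25_sh. How reads that match a gene and its pseudogene were placed is not given in the sources used here.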
